A study of Caenorhabditis elegans with 6 samples.

Results

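The proteasome subunit genes of Caenorhabditis elegans were followed in whole larvae with 6 Affymetrix arrays, 3 of wild-type worms and 3 of zip-3(gk3164) worms. Members were all probe sets whose platform annotation names exactly 1 gene with a symbol beginning pas-, pbs-, rpt- or rpn-. This gave 39 probe sets for 33 genes, out of 22548 probe sets that were not array controls and 17118 genes named by a single-gene probe set. The core particle was represented by 14 genes and the regulatory particle by 19, and a gene table of assembly WBcel235 held the same number of protein-coding genes with such symbols, 33. All 39 probe sets were bright enough to be tested.

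Larvae of both genotypes had been synchronized by bleaching, grown in liquid culture with control(RNAi) bacteria as food, and harvested at the L4 stage, the last larval stage. The mutant group carried the gk3164 allele of zip-3, a gene for a bZIP transcription factor, and the wild-type group carried no allele named in the labels. RNA came from the whole organism, so each value averages over soma and germline. The labels call the 3 samples of a group biological replicates. How gk3164 changes the gene and whether the strain had been outcrossed is not given in the sources used here.

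The proteasome is the protease that degrades proteins tagged with ubiquitin. Its core particle is a barrel of stacked rings, with pas genes encoding the alpha subunits of the outer rings and pbs genes the beta subunits of the inner rings, some of which cut proteins. The regulatory particle caps the barrel: its base holds the rpt ATPases, which unfold substrates and thread them inwards, and non-ATPase rpn subunits, while its lid holds further rpn subunits, among them the enzyme that removes ubiquitin. Subunit genes in worms are known to be raised together by the transcription factor SKN-1A when proteasome activity is low.

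Values are MAS5 signals on a linear scale, and differences are log2 of the mutant minus log2 of the wild-type signal. Genotypes were compared with limma over 13529 probe sets with Benjamini-Hochberg adjustment over all of them, and a gene was represented by its brightest probe set, which left 10369 genes. The zip-3 signal itself lay between 939.6 and 1203.9 in the wild-type arrays and between 233.8 and 458.7 in the mutant arrays, a log2 difference of -1.64 ± 0.28 (SE; limma adjusted p = 0.0717). Mutant array 3 stood apart from the other mutant arrays. It correlated with them at r = 0.890 and 0.925 across the tested probe sets, and with the wild-type arrays at 0.943 to 0.958, where probe sets are not independent replicates. Calls that change without it are given both ways. Only 3 arrays per group limit the precision of every value.

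No proteasome subunit gene passed the adjusted threshold of 0.05 between the genotypes. The number of members past it was 0 of 33, where 0.154% of all genes tested passed. At an unadjusted limma p under 0.05, 1 member was lower, rpn-6.2, where 10.1% of all genes tested were lower and 19.9% differed in either direction. The median log2 difference over the 33 genes was -0.07, with 10 positive and 23 negative values, or 3 positive and 30 negative where each array was centred on its median. Over all genes tested the median was 0.03, and 47.2% were negative, both without centring. Centring shifted every gene by the same amount and moved the median of all genes to -0.03. The added negative values of the members come from that shift. For the other 32 genes the differences lay between -0.31 and 0.11, with limma adjusted p-values from 0.319 to 0.990. In the log2 differences by gene, rpn-6.2, which was left out of that band, lies below it at -0.91.

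**Figure D1:**
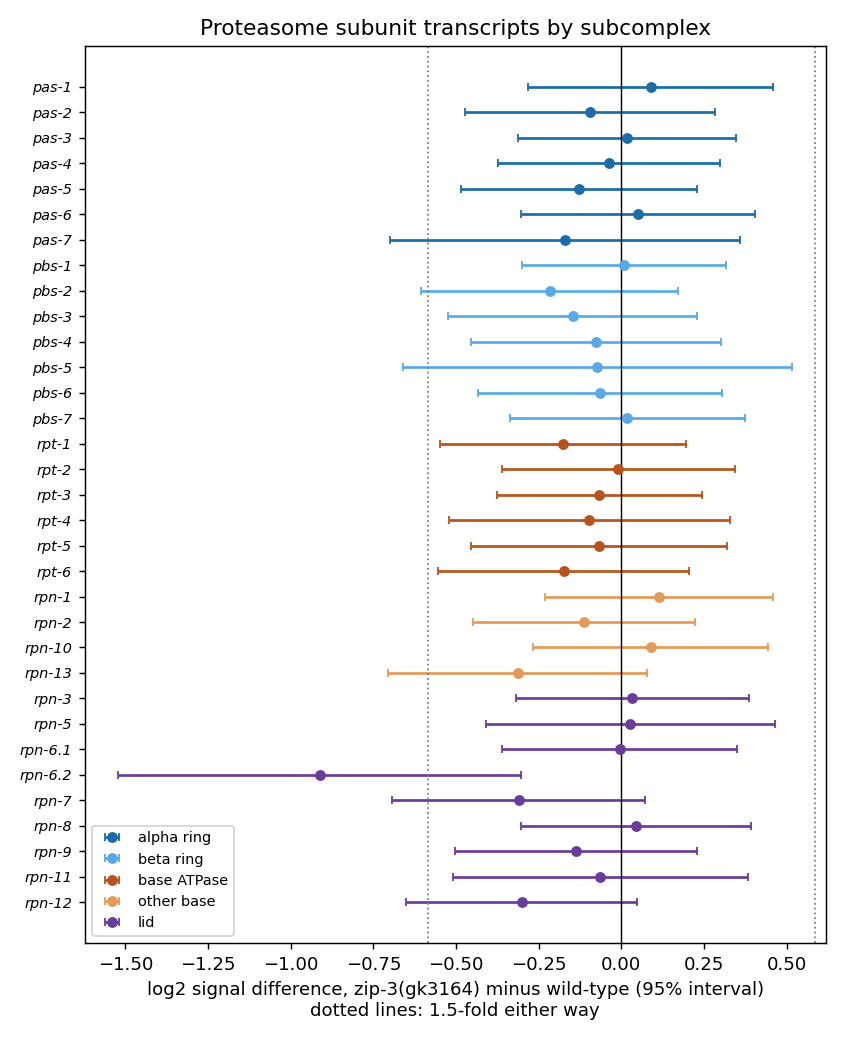
Log2 signal difference of each of the 33 proteasome subunit genes, mutant minus wild-type (x axis), with limma's 95% interval as the bar, ordered by subcomplex (y axis). All intervals cross 0 except that of rpn-6.2, which spans -1.52 to -0.30, and 26 of 33 lie inside the dotted lines at 1.5-fold either way.

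The arrays set narrow limits on most of these differences. The 95% interval of limma lay within a 1.5-fold change in either direction for 26 of the 33 genes, where 16.2% of all genes tested had so narrow an interval around 0. The members were mostly bright: 31 lay above the 75th percentile of mean signal over the genes tested, of which 25 had such an interval, against 37.3% of all genes above that percentile. The median standard error of a log2 difference was 0.16 over the members, 0.20 over the genes above that percentile and 0.26 over all genes tested. For the genes other than rpn-6.2, the interval reaching lowest was that of rpn-13, at -0.70 or 1.63-fold lower, and the one reaching highest was that of pbs-5, at 0.52 or 1.43-fold higher. Larger changes than these lay outside the single-gene intervals, while smaller ones could not be told from 0 with 3 arrays per group.

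Signals of the 3 mutant arrays all lay below those of the 3 wild-type arrays for 5 genes, rpt-6, rpn-2, rpn-13, rpn-12 and rpn-6.2, where 9.34% of all genes tested did so. No member lay wholly above, where 13.8% of all genes tested did. All 5 belong to the regulatory particle, and the groups overlapped for each of the 14 core genes. The difference between the particles in this count was not tested, because the subunits of 1 complex are not independent samples.

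**Figure D2:**
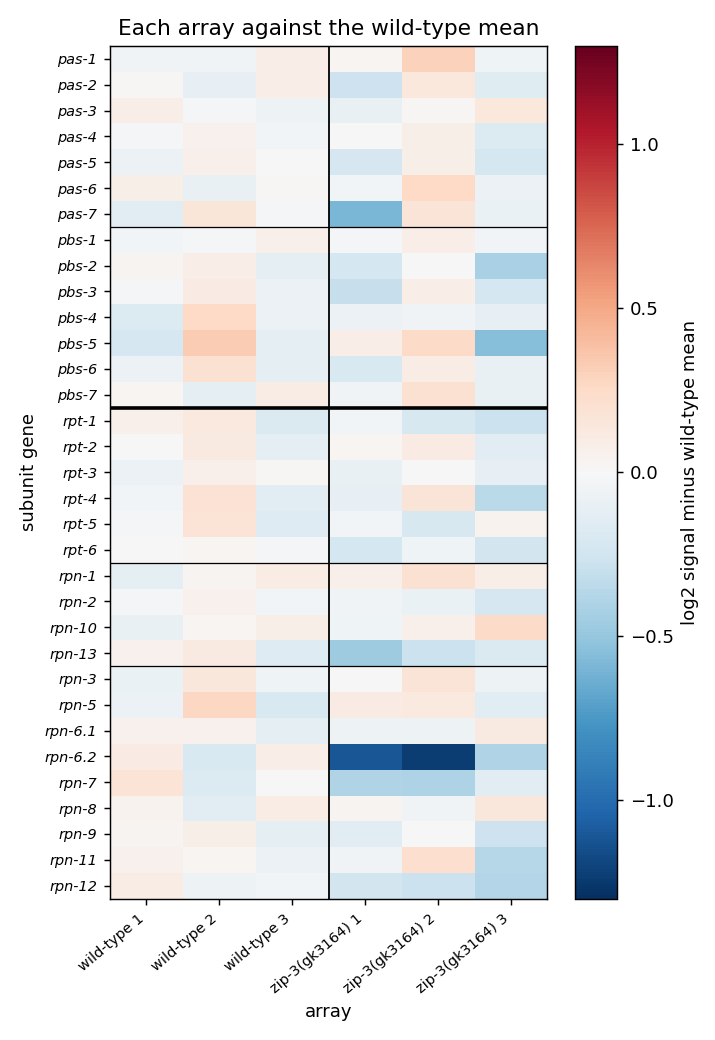
Log2 signal of each proteasome subunit gene in each array relative to the mean of the wild-type arrays (colour), with arrays along the x axis and genes along the y axis. The thick line separates the core particle above from the regulatory particle below. rpn-6.2 is darkest in mutant arrays 1 and 2, at -1.11 and -1.24, and stands at -0.39 in mutant array 3.

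In the alpha ring, whose subunits form the gate through which substrates enter, the median was -0.04, from 3 positive and 4 negative differences. pas-7 had the largest difference of the ring, with wild-type signals of 1336.7, 1650.6 and 1461.0 and mutant signals of 979.9, 1655.9 and 1394.8. The groups overlapped, since mutant array 1 was below every other array and mutant array 2 was the highest of all. The log2 difference of pas-7 was -0.17 ± 0.23 (SE; limma adjusted p = 0.728), and it was 0.04 without mutant array 1.

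pas-5 followed, with 3320.4, 3681.4 and 3523.6 in wild-type and 3003.3, 3684.2 and 2982.7 in the mutant. Here mutant arrays 1 and 3 lay below all wild-type arrays and mutant array 2 just above them, and the log2 difference was -0.13 ± 0.15 (SE). pas-3 had the smallest difference of the ring, 0.02 ± 0.14 (SE), with 4443.1, 4151.4 and 3989.8 in wild-type and 3908.3, 4229.6 and 4619.9 in the mutant, and its groups were interleaved. The other alpha genes, pas-1, pas-2, pas-4 and pas-6, differed by 0.09, -0.10, -0.04 and 0.05. Without mutant array 3, pas-3 stood at -0.04 and pas-4 at 0.04. All 7 alpha genes were above the wild-type mean in mutant array 2, and 1 was above it in each of mutant arrays 1 and 3.

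The beta ring holds the subunits that cut proteins, encoded by pbs-1, pbs-2 and pbs-5, which provide caspase-like, trypsin-like and chymotrypsin-like activity in the eukaryotic proteasome. Across the 7 beta genes the median log2 difference was -0.07, with 2 positive and 5 negative. pbs-1 was the most even of all the core genes between arrays, with 4318.6, 4333.7 and 4613.2 in wild-type and 4329.0, 4706.0 and 4303.1 in the mutant. Its difference of 0.01 ± 0.13 (SE) was the smallest of the ring, and its 95% interval ran from -0.30 to 0.32.

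pbs-2 had signals of 3198.9, 3323.2 and 2878.2 in wild-type and 2675.7, 3127.0 and 2332.9 in the mutant. Mutant arrays 1 and 3 were below all wild-type arrays, and mutant array 2 was within their range. The difference of pbs-2, -0.22 ± 0.17 (SE; limma adjusted p = 0.520), was the largest in the core particle. pbs-5 varied most among the core genes, with 2749.6, 3999.4 and 2946.3 in wild-type and 3379.4, 3787.4 and 2177.8 in the mutant. For pbs-5 the spread within each genotype exceeded the difference between them, which was -0.07 ± 0.25 (SE), and it turned to 0.17 without mutant array 3 and to 0.09 without wild-type array 2.

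Among the structural beta genes, pbs-3 had the second largest difference of the ring at -0.15 ± 0.16 (SE), from 3415.4, 3719.2 and 3276.3 in wild-type and 2820.5, 3667.7 and 2962.0 in the mutant. Its groups overlapped through mutant array 2 alone. pbs-4, pbs-6 and pbs-7 differed by -0.08, -0.06 and 0.02. None of the 7 beta genes was above the wild-type mean in mutant array 3, against 5 in mutant array 2 and 1 in mutant array 1.

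The base ATPase genes, rpt-1 to rpt-6, encode the ring that unfolds substrates. All 6 differences were negative, between -0.18 and -0.01 with a median of -0.08 and unadjusted limma p-values above 0.05. Scaling of the arrays left these signs as they were, and averaging the probe sets of a gene gave rpt-2 a value of 0.02. rpt-1 read 3380.1, 3516.2 and 2837.6 in wild-type and 3154.0, 2790.7 and 2656.4 in the mutant, a difference of -0.18 ± 0.16 (SE; limma adjusted p = 0.587). Its groups overlapped because wild-type array 3 lay below mutant array 1.

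rpt-6 gave 812.8, 827.5 and 796.8 in wild-type and 695.2, 780.2 and 688.5 in the mutant. The 3 wild-type values were close together and all above the mutant values, and the difference was -0.17 ± 0.16 (SE; limma adjusted p = 0.602). rpt-2 showed the smallest difference of the base, -0.01 ± 0.15 (SE), with 3129.3, 3403.2 and 2902.4 in wild-type and 3186.4, 3372.1 and 2824.8 in the mutant. rpt-3, rpt-4 and rpt-5 differed by -0.07, -0.10 and -0.07. Without single arrays, rpt-2, rpt-4 and rpt-5 took small positive values, up to 0.06, 0.03 and 0.02, those of rpt-2 and rpt-4 without mutant array 3.

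The other subunits of the base include rpn-1 and rpn-2, large scaffold subunits, and rpn-10 and rpn-13, which encode ubiquitin receptors. rpn-13 had the largest difference of these, -0.31 ± 0.17 (SE; limma adjusted p = 0.348). Its signals were 1791.9, 1862.4 and 1529.3 in wild-type and 1247.2, 1414.5 and 1507.5 in the mutant, with mutant array 3 just below wild-type array 3 and no overlap. rpn-1 had the largest positive difference of the complex at 0.11 ± 0.15 (SE), with 2054.8, 2290.8 and 2395.1 in wild-type and 2344.1, 2564.1 and 2377.0 in the mutant, where mutant arrays 1 and 3 lay inside the wild-type range.

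The receptor gene rpn-10, in contrast to rpn-13, had a small positive difference of 0.09 ± 0.15 (SE), from 2816.9, 3074.7 and 3182.2 in wild-type and 2912.3, 3162.8 and 3599.2 in the mutant. Only mutant array 3 was above the wild-type range for rpn-10. The scaffold gene rpn-2 read 2368.5, 2517.2 and 2365.3 in wild-type and 2348.6, 2283.6 and 2081.1 in the mutant, a difference of -0.11 ± 0.14 (SE). Its groups did not overlap, but mutant array 1 lay close to the lowest wild-type array.

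The lid had the widest range of the subcomplexes, with differences from -0.91 to 0.05 over 9 genes and a median of -0.06. Its low end was rpn-6.2 alone, and the next lowest lid gene, rpn-7, stood at -0.31. rpn-11, the lid subunit that removes ubiquitin from substrates, had 1669.1, 1631.5 and 1523.0 in wild-type and 1562.0, 1868.5 and 1246.3 in the mutant. The mutant values of rpn-11 surrounded the wild-type values, and the difference was -0.06 ± 0.19 (SE), or 0.09 without mutant array 3. rpn-7 gave 3699.5, 2891.0 and 3292.1 in wild-type and 2500.3, 2490.0 and 2965.0 in the mutant. For rpn-7, mutant array 3 exceeded wild-type array 2, and the difference was -0.31 ± 0.16 (SE; limma adjusted p = 0.343). Without mutant array 3 rpn-7 was at -0.39, with an unadjusted limma p of 0.0480 and an adjusted p of 0.154, in a fit where 16.8% of all probe sets tested were lower at an unadjusted p under 0.05.

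rpn-12, described here after its values were seen, had 2032.1, 1817.9 and 1860.1 in wild-type and 1609.8, 1569.7 and 1455.3 in the mutant. Every mutant value lay below every wild-type value. The difference of -0.30 ± 0.15 (SE) did not pass (limma adjusted p = 0.319), and it ranged from -0.36 to -0.25 over 17 alternatives. Several of these could not alter the estimate, and without overlap leaving out an array could not reverse its sign. rpn-3, rpn-5, rpn-8 and rpn-9 differed by 0.03, 0.03, 0.05 and -0.14, and rpn-8 stood at -0.0056 without mutant array 3.

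**Figure D3:**
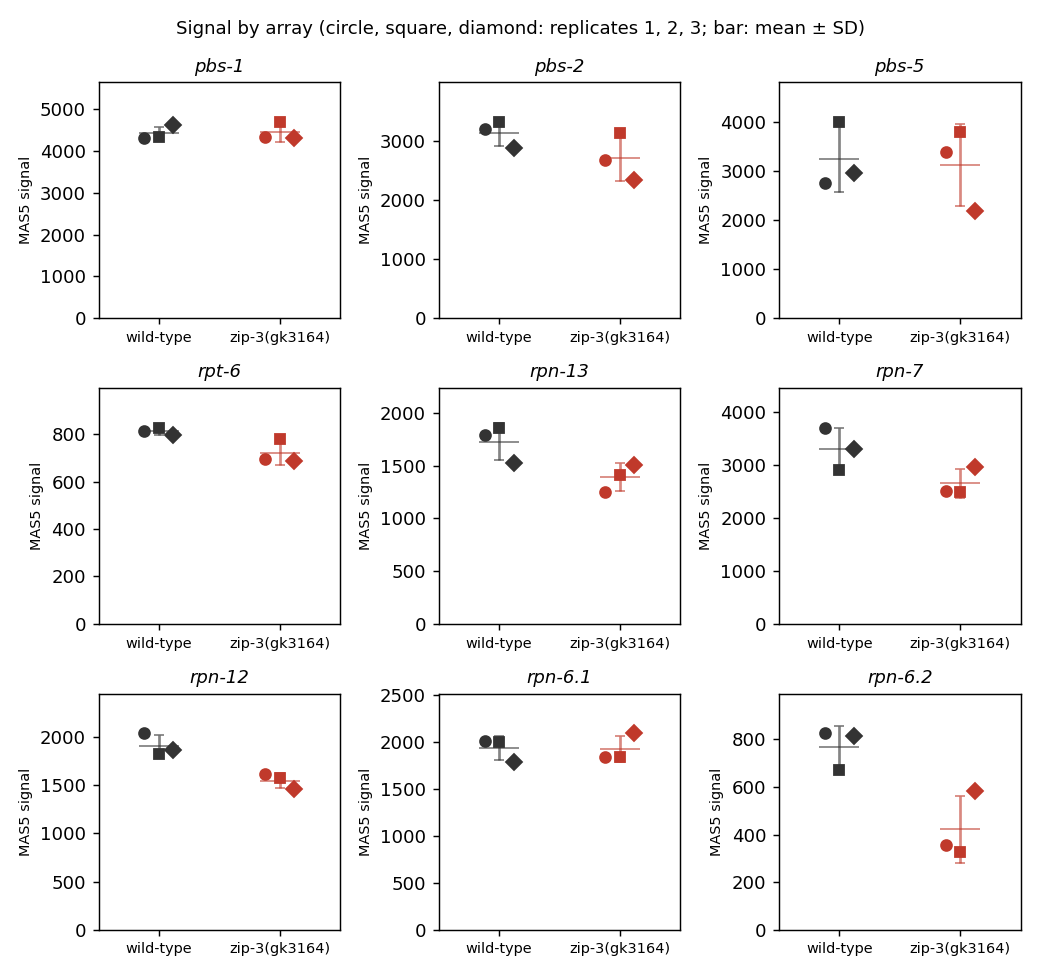
MAS5 signal (y axis, linear, from 0) of 9 proteasome subunit genes in the wild-type and mutant arrays (x axis), with symbols for replicates and bars for the mean ± SD of 3 arrays. The groups are apart for rpt-6, rpn-13, rpn-12 and rpn-6.2 and overlap for the other panels, and rpn-6.2 averages 769.9 in wild-type and 421.5 in the mutant.

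Worms have a pair of genes for the lid subunit Rpn6. The rpn-6.1 probe set carries a suffix for sequence shared with other transcripts, and that of rpn-6.2 does not. rpn-6.1, which has been linked to proteasome activity and lifespan in worms, had 2008.0, 2004.1 and 1783.0 in wild-type and 1844.3, 1844.0 and 2090.5 in the mutant. Its difference was -0.00 ± 0.15 (SE) with a 95% interval from -0.36 to 0.35, the smallest of the lid. rpn-6.2 had 824.7, 669.5 and 815.6 in wild-type and 355.6, 325.5 and 583.5 in the mutant. All mutant values of rpn-6.2 were below the wild-type values, mutant array 3 by the least.

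The wild-type mean of rpn-6.2 was 769.9 ± 87.1 and its mutant mean 421.5 ± 141.0 (SD, n = 3). The log2 difference was -0.91 ± 0.26 (SE), a 1.88-fold lower signal, and did not pass over all probe sets (limma adjusted p = 0.172). It ranked at 562 of 10369 genes by p-value, and 14.7% of the genes tested had a larger absolute difference. Without mutant array 3 it was -1.17 ± 0.19 (SE) and passed (limma adjusted p = 0.00948), in a fit where 10.9% of all genes tested passed as lower. Over 17 alternatives the adjusted p of rpn-6.2 ranged from 0.00268 to 0.453.

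The log2 ratio of rpn-6.2 to rpn-6.1 within an array was -1.28, -1.58 and -1.13 in wild-type and -2.37, -2.50 and -1.84 in the mutant. The groups did not overlap, and the ratio was lower by 0.91 in the mutant. A two-sided exact permutation test of the ratio gave p = 0.10, the smallest that 3 arrays against 3 can give. With so few arrays the test could not have passed, and the ratio is given as a description.

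In the mutant arrays the medians of sperm and germline markers, like rpn-6.2, were lowest in array 2 and nearest the wild-type mean in array 3. Relative to the wild-type mean, rpn-6.2 stood at -1.11, -1.24 and -0.39 in mutant arrays 1, 2 and 3, and the median of 16 tested sperm marker genes, of 18 listed, stood at -1.74, -2.36 and -0.37. In the wild-type arrays rpn-6.2 stood at 0.11, -0.20 and 0.09, and the sperm markers at 0.21, -0.08 and -0.17. The summed signal of the sperm markers was 41169 to 53196 in wild-type and 8212 to 33904 in the mutant. All 16 had negative differences, and 10 lay wholly lower in the mutant arrays, where 9.34% of all genes tested did. The 20 germline and oocyte markers, all tested, stood at 0.11, 0.36 and -0.48 in wild-type arrays and -1.02, -1.94 and -0.17 in mutant arrays, with summed signals of 35676 to 60459 and 13833 to 44795, and 4 of the 20 lay wholly lower. No tested marker of either list had a signal of 0, but neither had any gene tested, so this does not show that the cells were present. In the wild-type arrays neither median followed rpn-6.2. The germline and oocyte median was highest in array 2, where rpn-6.2 was lowest. The sperm median was lowest in array 3, at -0.17, where rpn-6.2 stood at 0.09. Of the mutant arrays, array 3 was also nearest the wild-type mean for the moulting markers, at 1.23. The part of the sperm and germline markers in the rpn-6.2 difference was not tested. In RNA of whole animals, fewer cells of a type and less RNA per cell cannot be told apart.

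**Figure D4:**
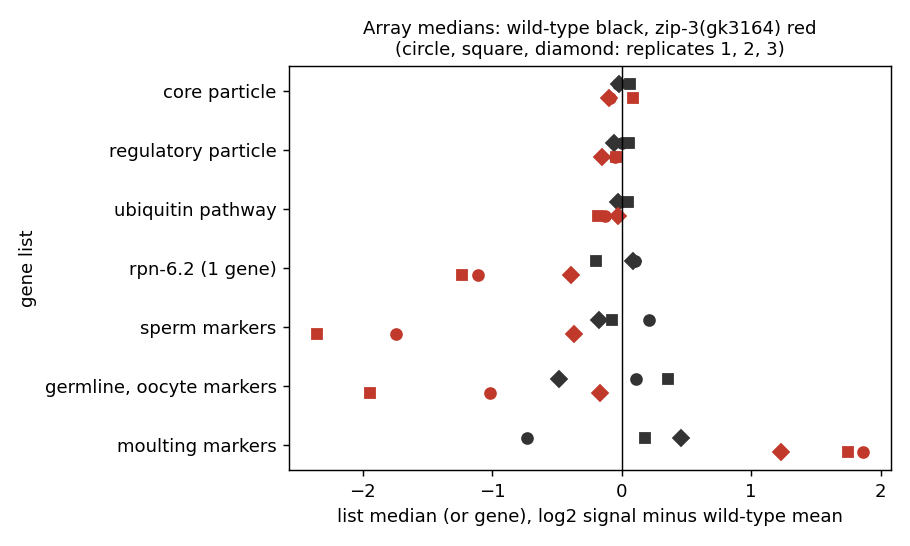
Median log2 signal of each gene list in each array relative to the mean of the wild-type arrays (x axis), with the lists and the single gene rpn-6.2 along the y axis. The core and regulatory particle medians lie between -0.15 and 0.09 in all 6 arrays, while the sperm marker median reaches -2.36 and the moulting marker median 1.86.

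Moulting genes stood on the opposite side. The 20 moulting markers, all tested, stood at 1.86, 1.75 and 1.23 in the mutant arrays and at -0.73, 0.18 and 0.45 in the wild-type arrays, with summed signals of 25000 to 36436 and 5981 to 14360. The proteasome medians did not follow either marker list in size. Over all 33 genes the array medians were -0.02, 0.06 and -0.03 in wild-type and -0.06, 0.07 and -0.15 in the mutant. For markers of the main tissues, the medians of the body wall muscle, intestine and neuron lists differed by 0.26, 0.05 and 0.16. That of the pharynx list, with 5 of 6 genes tested, differed by -0.33. No tested tissue marker had a signal of 0, but neither had any gene tested. With log2 and no offset, a probe set with a signal of 0 could not have been tested. The absence of 0 therefore does not show that a tissue was present.

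The core and regulatory particles had nearly equal median differences. The median log2 difference was -0.07 over the 14 core genes and -0.07 over the 19 regulatory genes, and the core minus the regulatory median was -0.002. The median absolute difference was 0.07 in the core and 0.10 in the regulatory particle. The core median stood at -0.03, 0.06 and -0.02 in the wild-type arrays and -0.09, 0.09 and -0.10 in the mutant arrays. The regulatory median stood at 0.00, 0.06 and -0.06 in wild-type and -0.05, -0.04 and -0.15 in the mutant.

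Both genotypes overlapped for each particle. The core minus regulatory value was -0.03, 0.01 and 0.04 in wild-type and -0.04, 0.13 and 0.05 in the mutant, with mutant array 2 the highest of the 6. In that array 12 of 14 core genes lay above the wild-type mean, against 8 of 19 regulatory genes. In mutant array 3 the counts were 1 of 14 and 5 of 19, and in mutant array 1 they were 2 of 14 and 5 of 19. Leaving out single arrays gave core minus regulatory values from 0.01 to 0.08, all positive and the highest without mutant array 1. All 6 arrays gave -0.002, and -0.016 with array weights, so this difference of medians had no stable sign across settings. Leaving out rpn-6.2, an alternative added after its value was seen, left the regulatory median at -0.07.

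Subunit genes with more than 1 probe set show how far the probe sets of a gene differ on the same arrays. There were 6 such genes, pbs-3, pbs-7, rpt-1, rpt-2, rpn-2 and rpn-10, with 2 probe sets each. The differences from the paired probe sets lay between 0.05 and 0.25 apart, and 4 of the 6 pairs had opposite signs. The widest gap was that of pbs-3, at -0.15 ± 0.16 (SE) from the brighter and 0.10 ± 0.15 (SE) from the dimmer probe set, with 1695.6, 1653.9 and 1504.5 in wild-type and 1724.7, 1860.5 and 1611.8 in the mutant for the latter. For pbs-7 the brighter probe set gave 0.02 ± 0.15 (SE) and the dimmer -0.12 ± 0.14 (SE). Of the 32 genes other than rpn-6.2, 3 had an absolute difference above this widest gap, rpn-7, rpn-12 and rpn-13. The gap does not measure the spread between samples, and none of these 3 passed (limma adjusted p = 0.343, 0.319 and 0.348).

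The remaining pairs were similar. rpt-1 gave -0.18 and -0.01, rpt-2 -0.01 and 0.06, rpn-2 -0.11 and -0.06, and rpn-10 0.09 and -0.03. The dimmer rpn-2 probe set read only 135.1, 146.7 and 134.2 in wild-type and 126.7, 146.7 and 126.1 in the mutant. Suffixes for sequence shared with other transcripts were carried by 26 of the 39 probe sets, and not by those of rpn-6.2, rpn-7 or rpn-12.

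No gene of the wider ubiquitin pathway passed the adjusted threshold either. Of 31 listed genes for ubiquitin, its conjugating machinery and proteasome cofactors, 24 matched a single-gene probe set by symbol and were tested, and 0 passed. The list median was -0.11, with 7 positive and 17 negative. Signals of the mutant arrays all lay below those of the wild-type arrays for 4 of the 24, rad-23, ufd-2, usp-14 and ubq-1, where 9.34% of all genes tested did so. They all lay above for 1, uba-1, where 13.8% of all genes tested did so. At an unadjusted limma p under 0.05, 1 of the 24 was lower, where 10.1% of all genes tested were. It was rad-23, which encodes a shuttle that brings ubiquitylated proteins to the proteasome. rad-23 read 4111.0, 4317.1 and 3561.4 in wild-type and 3130.5, 2660.7 and 3404.7 in the mutant, with no overlap and a difference of -0.39 ± 0.16 (SE; limma adjusted p = 0.252).

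ufd-2, which encodes an enzyme that extends ubiquitin chains, showed no overlap either, at -0.39 ± 0.18 (SE), with mutant array 3 at 1515.3 and the lowest wild-type array at 1616.0. uba-1, the ubiquitin-activating enzyme, was higher in each mutant array, with 2638.2, 2368.3 and 2536.0 in wild-type and 3278.9, 3321.0 and 2715.4 in the mutant, or 0.30 ± 0.15 (SE; limma adjusted p = 0.331). cul-3, which encodes a ubiquitin ligase scaffold, differed by -0.46 ± 0.30 (SE), and its groups overlapped because mutant array 3, at 260.2, lay among the wild-type arrays. The polyubiquitin gene ubq-1 read 8494.5, 8757.7 and 8289.5 in wild-type and 8247.4, 7133.6 and 8195.0 in the mutant, and differed by -0.12 ± 0.13 (SE). The gene for the proteasome-bound deubiquitinase usp-14 differed by -0.18 ± 0.15 (SE) and that for ubh-4 by -0.22 ± 0.18 (SE).

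The genes by which worms adjust proteasome levels through SKN-1A gave wider intervals. Of 6 listed genes, 5 were tested, with a median of 0.30, 3 positive and 2 negative, and 0 passed. The 5 differences ran from -0.22 to 0.77. At an unadjusted limma p under 0.05, 1 of the 5 was higher, sel-11, where 1023 of all 10369 genes tested were. skn-1, the gene of the transcription factor, had 788.5, 557.4 and 601.7 in wild-type and 878.3, 684.6 and 1109.9 in the mutant. The groups overlapped through wild-type array 1, and the difference was 0.45 ± 0.24 (SE; limma adjusted p = 0.356). sel-11, a ubiquitin ligase of the endoplasmic reticulum, read 576.9, 550.9 and 526.0 in wild-type and 863.1, 1436.0 and 663.1 in the mutant.

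All mutant values of sel-11 were above the wild-type values, and its difference of 0.77 ± 0.29 (SE) did not pass (limma adjusted p = 0.215). It passed without mutant array 3, at 1.01 (limma adjusted p = 0.0335), in a fit where 16.9% of all genes tested passed in either direction. The adjusted p of sel-11 over the 17 alternatives ranged from 0.0172 to 0.457. png-1 and ddi-1, for the peptide N-glycanase and the protease that process SKN-1A, differed by 0.30 ± 0.26 and -0.18 ± 0.19 (SE). sel-1, a partner of the sel-11 ligase, differed by -0.22 ± 0.21 (SE).

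A single setting on all 6 arrays changed the calls among the subunits. With array weights estimated by limma, 4 proteasome probe sets passed, all lower, where 16.8% of all probe sets tested passed as lower in the same fit. They were rpn-6.2 at -1.07, rpn-13 at -0.48, pas-7 at -0.53 and rpn-7 at -0.38. Those weights were 5.89 for mutant array 1, 0.448 for mutant array 2 and 0.267 for mutant array 3, so the mutant mean rested mostly on mutant array 1. At an unadjusted limma p under 0.05 the weighted fit gave 6 lower proteasome probe sets, where 21.4% of all probe sets were lower. Among the ubiquitin and SKN-1A genes 6 passed with these weights, where 35.7% of all genes tested passed in either direction, uba-1, sel-11 and png-1 higher and rad-23, rbx-1 and cul-3 lower.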

How the data were processed

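The authors' deposited values were linear MAS5 intensity values per probe set, made with Affymetrix Expression Console and MAS5 per the submitters' processing notes; no version is given in the sources used here. The mean without the lowest and highest 2% was 500.2 in every column, so arrays had been scaled to a common mean. Signals were transformed to log2 with no offset and no further normalization. Of 22548 non-control probe sets, 13529 with a mean log2 value at or above the 40th percentile (signal 68.67) were tested with limma 3.58.1 in R 4.3.3, genotype as the single term and an intensity trend, two-sided. Standard errors and 95% intervals are moderated. Symbols came from the platform annotation, and 0 were changed by the gene table.

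The members, lists, tests and alternatives were chosen with earlier results of these data known. Values in all arrays are given for the proteolytic beta genes, rpn-6.1, rpn-6.2, rpn-10, rpn-11, and per subcomplex the genes with the 2 largest and the smallest absolute difference. From other lists the genes with the largest moderated statistics are named, up to 4, and rpn-2, rpn-12, ddi-1, rbx-1, usp-14, ubh-4 and ubq-1 were added after their values were seen. The alternatives were quantile normalization, median centring, no filter, a stricter filter (60th percentile), an offset of 16 before log2, no trend, robust estimation, array weights, a replicate block, leaving out each array, leaving out shared-sequence probe sets, and averaging probe sets. The fit was tested on simulated data. Deviations from the group mean of same-numbered arrays correlated at 0.02, 0.05 and -0.16, so the numbers were not taken to pair the samples.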

Additional observations from a re-analysis of the deposited data

How the results depend on the processing

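Over the 17 alternatives, rpn-6.2 ranged from -1.17 to -0.75 and passed in 2 of them, with array weights (-1.07) and without mutant array 3. Its negative sign was largely fixed beforehand. The filters, no trend, robust estimation, the block, leaving out shared-sequence probe sets and averaging could not alter its estimate of -0.91. As its groups did not overlap, neither leaving out an array nor weighting the arrays could reverse it. rpn-7 (-0.38), rpn-13 (-0.48) and pas-7 (-0.53) passed with array weights and in no other. The count of proteasome probe sets that passed was 4 with array weights and 0 to 1 when single arrays were left out, the 1 being without mutant array 3. Of all probe sets tested, 16.8% passed as lower with array weights, 10.1% without mutant array 3 and 0% without any other array. At an unadjusted p under 0.05 the lower probe sets numbered 6 with array weights and 1 to 2 without single arrays. Of all probe sets tested, 21.4% were lower at that level with array weights, 16.8% without mutant array 3 and 4.04% to 6.76% without any other array. With replicate number as a block, 0 proteasome probe sets passed, rpn-6.2 was at -0.91 (limma adjusted p = 0.216), and no other call changed. The labels do not say that these numbers pair the samples.

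Median centring moved the core median to -0.13, the regulatory median to -0.12, the ubiquitin list to -0.16 and the SKN-1A list to 0.24. The median of all genes tested moved with them, from 0.03 to -0.03, since centring shifts every gene by the same amount. Such a shift could not change the core minus the regulatory median, which stayed at -0.002. Array weights moved the SKN-1A list to 0.43 and passed 6 ubiquitin and SKN-1A genes. The ubiquitin list was at -0.024 without probe sets of shared sequence and at -0.052 with probe sets averaged. Leaving out single arrays gave -0.12 to -0.0045 for the core median, -0.13 to -0.032 for the regulatory median, 0.010 to 0.076 for the core minus the regulatory median, -0.15 to -0.059 for the ubiquitin list, 0.17 to 0.40 for the SKN-1A list, and 0 to 1 ubiquitin and SKN-1A genes that passed.

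Signs of differences near 0 were not stable. None of the 33 genes changed sign with an adjusted p under 0.05. Median centring gave pas-6 -0.0072, pbs-1 -0.051, pas-3 -0.041, pbs-7 -0.040, rpn-3 -0.025, rpn-8 -0.013 and rpn-5 -0.031. It shifted every gene by the same amount, and the median of all genes tested changed sign as well. Quantile normalization gave rpn-6.1 0.018. Array weights gave pas-6 -0.011, pbs-1 -0.010, pas-3 -0.10, pbs-7 -0.013, rpn-3 -0.0053, rpn-10 -0.019 and pbs-5 0.040. Averaging probe sets gave pbs-7 -0.052 and rpt-2 0.024.

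Leaving out single arrays gave ranges that cross 0 for 18 genes. In the alpha ring they were -0.014 to 0.16 for pas-1, -0.044 to 0.077 for pas-3, -0.092 to 0.035 for pas-4, -0.053 to 0.11 for pas-6 and -0.34 to 0.041 for pas-7. In the beta ring they were -0.034 to 0.038 for pbs-1, -0.17 to 0.053 for pbs-4, -0.23 to 0.17 for pbs-5, -0.14 to 0.033 for pbs-6 and -0.071 to 0.075 for pbs-7. In the regulatory particle they were -0.065 to 0.063 for rpt-2, -0.23 to 0.030 for rpt-4, -0.15 to 0.024 for rpt-5, -0.033 to 0.11 for rpn-3, -0.070 to 0.16 for rpn-5, -0.065 to 0.026 for rpn-6.1, -0.026 to 0.10 for rpn-8 and -0.20 to 0.089 for rpn-11. The cause of these changes was not tested. No detection calls were used, and dim probe sets such as the second one of rpn-2 are read less firmly.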
